A study of Mus musculus with 16 samples.

Results

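This account follows 10 genes of extracellular proteolysis in bone marrow-derived macrophages: the matrix metalloproteinases Mmp8, Mmp9, Mmp12, Mmp13, Mmp14 and Mmp19, the metalloproteinase inhibitors Timp1 and Timp2, the protease Plau and the serine protease inhibitor Serpinb2. The genes were chosen by symbol in the platform annotation, which gave 13 of the 25697 probes on the array and 10 of its 16561 named genes. Mmp13 had 3 probes, Timp1 had 2 and the other genes had 1 each. RNA came from primary macrophages grown from the bone marrow of wildtype male C57BL/6J mice aged 10 weeks. All cells received ethanol, the vehicle, or 1 µM dexamethasone (Dex) overnight, a steroid drug that binds and activates the glucocorticoid receptor. Part of the cells then received lipopolysaccharide (LPS), the bacterial endotoxin that Toll-like receptor 4 recognises. The series held 2 separate experiments, with 3 h and with 6 h of LPS, and in each the 4 treatments were ethanol alone (called unstimulated), Dex, LPS, and Dex followed by LPS. Every treatment had 2 Illumina bead arrays, which the labels call technical replicates, so the p-values take in array-to-array spread, and the spread between cultures was not measured.

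Between 10407 and 11921 probes were detected per array, and the median signal of an array was 154 to 189. The median SD between arrays of a group was 0.113 at 3 h and 0.202 at 6 h on the log2 scale, and with 2 arrays a group the precision of each level is limited. All 7 macrophage markers on the array that were looked for, among them Adgre1, Csf1r and Lyz2, were detected on at least 1 array of every group. In the 3 h experiment, the arrays labelled unstimulated and Dex did not show the levels that separated those treatments at 6 h. Tnf, an early LPS target, had a deposited signal of 61386 to 62850 on the 4 arrays with those 2 labels and 62340 to 63048 on the LPS arrays of that experiment, but 1605 to 2175 on the unstimulated arrays at 6 h. Fkbp5, a direct glucocorticoid receptor target, had a deposited signal of 231 to 248 on the 3 h arrays labelled Dex, against 1763 to 1982 with Dex plus LPS at 3 h and 2832 to 3147 with Dex at 6 h. The 3 h results therefore rest on Dex plus LPS against LPS, and the other 2 groups of that experiment are named below as "the arrays labelled unstimulated" and "the arrays labelled Dex".

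Matrix metalloproteinases are zinc-dependent endopeptidases that cut collagens, elastin, other matrix proteins and many cytokines and surface proteins. Most are secreted as inactive proenzymes, and they are held in check by the tissue inhibitors of metalloproteinases, the TIMPs. Urokinase, the product of Plau, turns plasminogen into plasmin, a protease that degrades fibrin and can activate several metalloproteinases, and serpins such as the product of Serpinb2 inhibit it. Macrophages are a main source of these proteins in inflamed tissue, and glucocorticoids are known to lower several metalloproteinases.

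A probe is called detected where its detection p was under 0.05, and testing a gene required its brightest probe to be detected on both arrays of 1 group or more. This held in both experiments for 9 of the 10 genes. The exception was Mmp19, which was detected on 2 of 16 arrays. Levels below are background-corrected, quantile-normalized signals on a linear scale. Changes are differences of log2 levels with their standard error from limma. A gene is called changed at an adjusted p under 0.05, taken over all genes tested, and a difference of at least 2-fold. A level of RNA in a culture cannot tell fewer cells of a type from less RNA per cell.

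Of the 9 genes tested, LPS at 6 h raised Mmp13 and Serpinb2 and lowered Timp2, which is 3 called where 17.1% of all 7791 genes tested were called in either direction. Dex alone at 6 h raised Mmp8 and lowered Mmp9, Mmp13 and Serpinb2, 4 of 9 against 3.52% of all genes. The Serpinb2 call rests on signals below background with Dex, and its fall is bounded at 1.48-fold or more. In LPS-treated cells at 6 h, Dex raised Mmp8 and lowered Mmp13 and Serpinb2, 3 of 9 against 3.76% of all genes. In LPS-treated cells at 3 h, Dex raised Mmp8 and lowered Mmp12, Mmp13 and Plau, 4 of 9 against 3.44% of all 8032 genes tested. Dex plus LPS against Dex at 6 h raised Mmp13, Mmp14 and Serpinb2 and lowered Mmp8 and Timp2, 5 of 9 against 13.5% of all genes. The Dex comparisons at 6 h share arrays with the LPS comparisons, so their calls are not independent of each other. The genes were also chosen with earlier results of these data known. The shares over all genes are therefore given as a description, and an excess of calls among the 9 was not tested. The arrays of the compared groups did not overlap for 7 of the 9 genes with LPS at 6 h (70.4% of all genes), 6 with Dex at 6 h (49.5%), 7 with Dex in LPS-treated cells at 6 h (62.5%) and 8 with it at 3 h (68.6%), so with 2 arrays a group a lack of overlap is common among all genes.

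**Figure D1:**
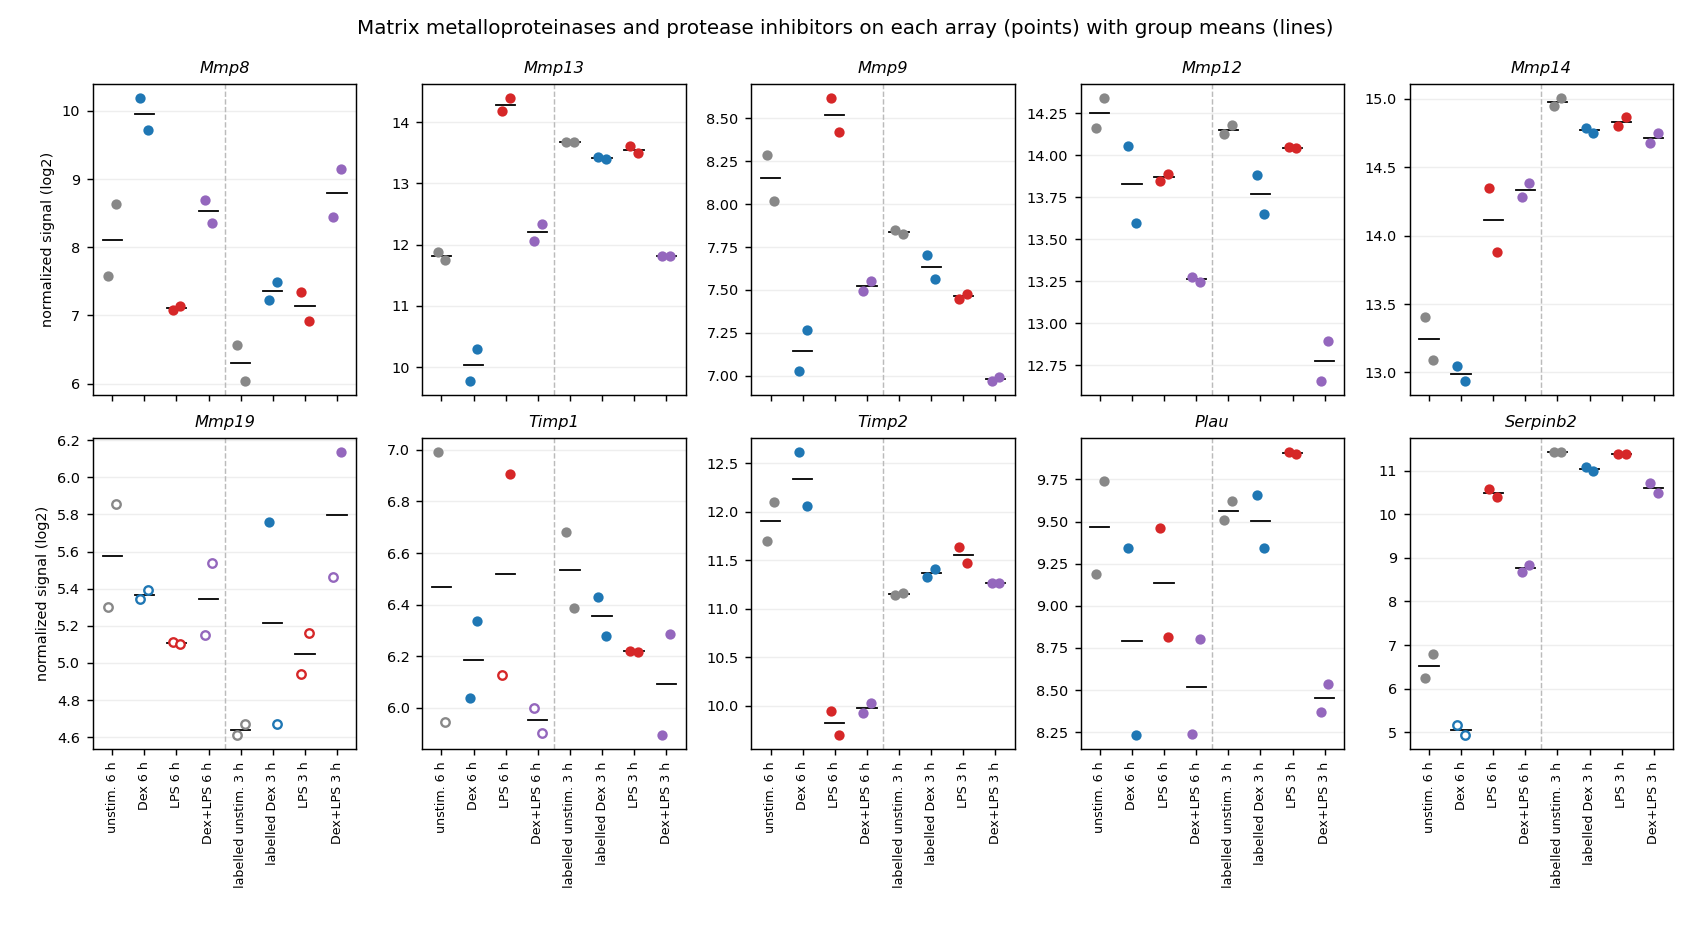
Normalized signal (log2) of the 10 genes on each of the 16 arrays. Each point is an array, each line the mean of a group of 2, open points were not detected, and the dashed line separates the 6 h experiment (left) from the 3 h experiment (right), which were normalized separately. At 6 h Mmp8 is higher and Mmp13 lower in each group with Dex than in the group without Dex and with the same stimulus, and Mmp19 has filled points on 2 arrays only.

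The genes whose RNA moved most with Dex in LPS-treated cells at 6 h were Mmp13, Serpinb2 and Mmp8. The bases upstream of their starts are shown because Mmp13 and Serpinb2 rose with LPS and fell with Dex, while Mmp8 did the opposite with Dex. RefSeq promoter entries were found for 7 of the 10 genes, all but Mmp9, Mmp19 and Plau. The sequences are the 250 bases before the start furthest upstream, on the plus strand of GRCm38.p6, with matches to the searched motifs in capitals.
Mmp13, chr9:7272264-7272513: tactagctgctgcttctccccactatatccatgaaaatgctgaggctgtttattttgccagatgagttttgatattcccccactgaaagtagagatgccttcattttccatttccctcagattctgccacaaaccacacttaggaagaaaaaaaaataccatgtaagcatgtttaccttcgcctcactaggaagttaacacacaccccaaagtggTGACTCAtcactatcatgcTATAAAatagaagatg
Serpinb2, chr1:107511173-107511422: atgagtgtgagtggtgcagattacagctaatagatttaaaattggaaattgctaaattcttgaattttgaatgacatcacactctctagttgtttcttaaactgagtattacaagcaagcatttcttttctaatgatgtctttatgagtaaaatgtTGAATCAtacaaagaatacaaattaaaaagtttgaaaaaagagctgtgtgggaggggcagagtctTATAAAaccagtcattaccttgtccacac
Mmp8, chr9:7558179-7558428: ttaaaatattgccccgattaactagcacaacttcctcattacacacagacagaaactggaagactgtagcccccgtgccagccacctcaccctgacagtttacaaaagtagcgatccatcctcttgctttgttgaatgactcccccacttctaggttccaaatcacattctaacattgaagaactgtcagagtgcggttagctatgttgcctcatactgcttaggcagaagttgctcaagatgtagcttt
The search covered TGANTCA, a loose form of the site of the AP-1 transcription factors that allows any base (N) at its centre. It also covered TATAAA, the TATA box, the palindromic consensus of the glucocorticoid response element and the NF-kB consensus. All 4 were searched on both strands. Mmp13 held TGACTCA at 35 to 29 bases and TATAAA at 16 to 11 bases before the start. Serpinb2 held TGAATCA at 94 to 88 bases and TATAAA at 29 to 24 bases before the start. The matches do not overlap each other, and no searched motif was in the Mmp8 window. Of 32817 windows of the same length from all promoter entries, 6.75% held TGANTCA and 12.4% the TATA box. The NF-kB consensus was in 7.25% of them and the glucocorticoid response element in 0.00914%. Among the other genes, Mmp12 held an NF-kB match, GGAGGCCCCC, 129 to 120 bases before its upstream start and an AP-1 match, TGAGTCA, 44 to 38 bases before its downstream start. Mmp14, Timp1 and Timp2 held none of the 4 motifs in these windows.

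Mmp13 encodes collagenase-3, the main interstitial collagenase of rodents. Its normalized signal at 6 h was 3757 and 3458 in unstimulated cells and 877 and 1263 with Dex. With LPS it was 18612 and 21441, and with Dex plus LPS 4281 and 5176. The order of the 4 groups was Dex, unstimulated, Dex plus LPS, LPS, with no overlap between any of them. LPS raised Mmp13 by 2.47 ± 0.21 on the log2 scale, or 5.54-fold (adjusted p = 1.7e-05). Dex lowered it without LPS by 3.42-fold (-1.78 ± 0.21, adjusted p = 0.00136) and in the presence of LPS by 4.24-fold (-2.09 ± 0.21, adjusted p = 0.000433). With both agents Mmp13 was still 4.47-fold above Dex alone (2.16 ± 0.21, adjusted p = 5.23e-05). At 3 h the normalized signal was 12436 and 11485 with LPS and 3586 and 3601 with Dex plus LPS. This is a difference of 3.33-fold (-1.73 ± 0.07, adjusted p = 6.16e-05), and it was the largest of the 9 genes at 3 h as well as at 6 h. The arrays labelled unstimulated at 3 h held Mmp13 at 13037 on both arrays, a level next to that of the LPS arrays.

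Fibroblasts and osteoclasts can also express Mmp13, and markers of both were read beside it. Of 6 fibroblast markers on the array, Col1a1, Col3a1, Lum and Pdgfra were not detected in any group. Col1a2 was detected only among the arrays labelled unstimulated at 3 h, which leaves Dcn as the only one detected at 6 h. Dcn rose with LPS at 6 h (1.40 ± 0.40, adjusted p = 0.02) and differed by -0.11 ± 0.40 with Dex in LPS-treated cells (adjusted p = 0.907) and by 0.12 ± 0.40 with Dex alone (adjusted p = 0.878). The summed deposited signal of the fibroblast markers at 6 h was 951 to 991 in unstimulated cells, 873 to 1137 with Dex, 1029.6 to 1237 with LPS and 1132 to 1209 with Dex plus LPS. These sums include the background signal of the markers that were not detected. Of 4 osteoclast markers, Calcr and Ocstamp were not detected in any group. Acp5 differed at 6 h by -0.68 ± 0.28 with LPS (adjusted p = 0.0793) and by -0.25 ± 0.28 with Dex alone (adjusted p = 0.601), neither called. Ctsk differed by -0.75 ± 0.23 with LPS at 6 h (adjusted p = 0.025), and with Dex in LPS-treated cells by -0.86 ± 0.23 at 6 h (adjusted p = 0.0465) and -0.55 ± 0.08 at 3 h (adjusted p = 0.00489), all under 2-fold and not called. Dex plus LPS against Dex lowered Ctsk (-1.32 ± 0.23, adjusted p = 0.00166), where Mmp13 rose. The summed signal of the osteoclast markers at 6 h was 1266 to 1538 in unstimulated cells, 1497 to 1545 with Dex, 1059.6 to 1152 with LPS and 854 to 1131 with Dex plus LPS. The part of such cells in the Mmp13 level was not tested.

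The other Mmp13 probes were dimmer. The second probe went the same way as the brightest, with a rise of 3.44 ± 0.23 with LPS (adjusted p = 3.55e-06) and a fall with Dex in LPS-treated cells of -2.68 ± 0.23 at 6 h (adjusted p = 1.44e-04) and -2.29 ± 0.10 at 3 h (adjusted p = 8.66e-05). With Dex alone it was not detected on either array, which gives a level at least 1.61-fold lower than in unstimulated cells and no call (adjusted p = 0.052). The third probe lay near background, was detected on both arrays in 4 of the 8 groups, and was not detected with Dex alone. There it was called lower by at least 1.53-fold, with an adjusted p that rounds to the threshold (adjusted p = 0.05). Its difference with LPS at 6 h was 0.54 ± 0.29 (adjusted p = 0.177), and with Dex in LPS-treated cells -0.93 ± 0.29 at 6 h (adjusted p = 0.086) and 0.01 ± 0.25 at 3 h (adjusted p = 0.986). No probe of Mmp13 was called in the direction opposite to another in the same comparison.

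**Figure D2:**
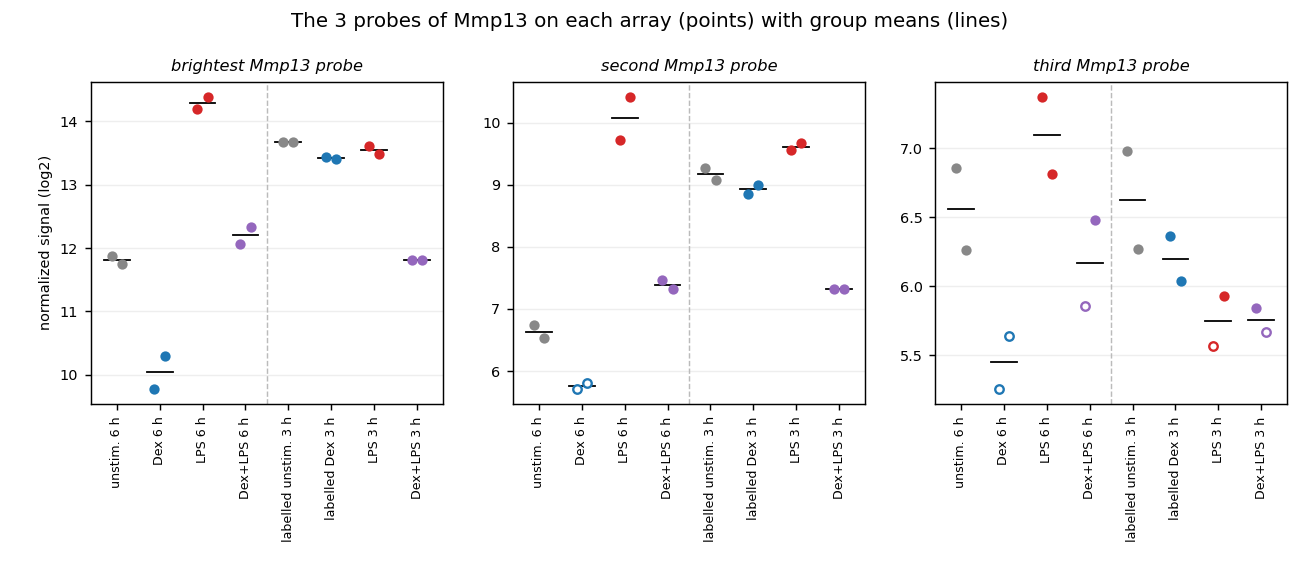
Normalized signal (log2) of the 3 probes of Mmp13 on each array, drawn as in the plot of all genes, with a separate vertical scale for each probe. The brightest and the second probe share the order of LPS above Dex plus LPS in both experiments, and the third probe lies near background.

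Mmp8 encodes the neutrophil collagenase, which also cuts fibrillar collagens. Dex moved its RNA in the direction opposite to that of Mmp13. Its normalized signal at 6 h was 192 and 396 in unstimulated cells, 1163 and 847 with Dex, 136 and 141 with LPS, and 415 and 329 with Dex plus LPS. The Dex arrays were above all others and the LPS arrays below all others. Dex alone raised Mmp8 by 3.60-fold (1.85 ± 0.31, adjusted p = 0.00777), and Dex in LPS-treated cells by 2.67-fold (1.42 ± 0.31, adjusted p = 0.0226). The call in LPS-treated cells was lost on leaving out each array of the LPS and of the Dex plus LPS group in turn, with differences of 1.25 to 1.59 and adjusted p of 0.107 to 0.195. Without the first Dex array the Dex difference was 1.62 (adjusted p = 0.0608), and without the first unstimulated array the LPS difference was -1.52 (adjusted p = 0.00289) and became a call. LPS went with a lower level, -0.99 ± 0.31 or 1.99-fold (adjusted p = 0.0291), just short of the 2-fold limit. Dex plus LPS was 2.69-fold below Dex alone (-1.43 ± 0.31, adjusted p = 0.00659), and without the second Dex plus LPS array this was -1.26 (adjusted p = 0.0666).

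At 3 h the normalized signal of Mmp8 was 163 and 122 with LPS and 348 and 569 with Dex plus LPS, which is 3.16-fold higher (1.66 ± 0.29, adjusted p = 0.00785). Mmp8 was thus higher with Dex in LPS-treated cells in both experiments, with no overlap of the arrays in either. The arrays labelled unstimulated held 95.0 and 66.0 and the arrays labelled Dex 149.9 and 180.4, a difference of 1.05 ± 0.29 (adjusted p = 0.06). Mmp8 RNA is known from neutrophils, and markers of that cell type were read beside it. Of 9 neutrophil markers, 8 were on the array under the symbol used and 7 were detected on at least 1 array of every group, while Cxcr2 was not detected in any. The summed deposited signal of the markers was 44047 to 59928 in unstimulated cells at 6 h, 55510 to 59528 with Dex, 48310 to 51893 with LPS and 47551 to 51815 with Dex plus LPS. With LPS at 6 h, Ltf fell (-1.02 ± 0.21, adjusted p = 0.00373) and the other markers were not called. S100a9 (-0.55 ± 0.18), Elane (-0.52 ± 0.28), Mpo (-0.36 ± 0.17) and S100a8 (-0.29 ± 0.17) were lower there. Camp (0.62 ± 0.19) and Ngp (0.50 ± 0.18) were higher. With Dex alone, Camp (-1.28 ± 0.19, adjusted p = 0.00456) and Ltf (-1.13 ± 0.21, adjusted p = 0.0122), both neutrophil granule genes, fell. The other 5 were not called, with Elane at -0.42 ± 0.28, S100a9 at -0.29 ± 0.18, S100a8 at 0.03 ± 0.17, Mpo at 0.14 ± 0.17 and Ngp at 0.26 ± 0.18. None of the 7 was called with Dex in LPS-treated cells by limma at 6 h or 3 h, and Ltf, at -0.79 ± 0.21 (adjusted p = 0.048) and -0.49 ± 0.08 (adjusted p = 0.00633), was the one furthest from 0 at 6 h. At 3 h the summed signal was 38622 to 42414 with LPS and 52794 to 57529 with Dex plus LPS, and S100a8 was 0.64 ± 0.11 higher (adjusted p = 0.00723). The part of other cells in the Mmp8 level was not tested.

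Mmp13, Mmp12 and Mmp8 lie in this order on chromosome 9 in the RefSeq annotation. No protein-coding gene lies between Mmp13 and Mmp12, and 4 lie between Mmp12 and Mmp8, namely Mmp1b, Mmp3, Mmp1a and Mmp10. In LPS-treated cells at 3 h, Dex lowered Mmp13 and Mmp12 and raised Mmp8, so calls of opposite sign were found within this row of genes.

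Mmp9 encodes gelatinase B, which cuts denatured collagen and basement membrane collagen. Its normalized signal at 6 h was 312 and 260 in unstimulated cells, 130.2 and 154 with Dex, 393 and 343 with LPS, and 180.5 and 188 with Dex plus LPS. Both groups with Dex lay below both groups without it. Dex alone lowered Mmp9 by 2.01-fold (-1.01 ± 0.18, adjusted p = 0.0107), just past the 2-fold limit. In LPS-treated cells the level was 1.99-fold lower (adjusted p = 0.00984), just short of it. At 3 h the normalized signal was 174 and 178 with LPS and 125 and 127 with Dex plus LPS, a smaller difference of -0.48 ± 0.08 (adjusted p = 0.00626), again with no overlap. The LPS difference at 6 h was 0.37 ± 0.18 (adjusted p = 0.142). The call with Dex alone was lost without the first Dex array (-0.89, adjusted p = 0.0608), without the first unstimulated array (-0.88, adjusted p = 0.0668), and under median scaling of the arrays in place of quantile normalization (-0.61, adjusted p = 0.0545).

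Mmp12 encodes macrophage elastase, which degrades elastin. It was abundant on every array, and Dex lowered it in LPS-treated cells at 3 h. There its normalized signal was 16936 and 16848 with LPS and 6468 and 7620.4 with Dex plus LPS, 2.41-fold lower (-1.27 ± 0.11, adjusted p = 0.000909). At 6 h the normalized signal was 18304 and 20718 in unstimulated cells, 17057 and 12404 with Dex, 14758 and 15173 with LPS, and 9917 and 9719 with Dex plus LPS. The Dex plus LPS arrays were the lowest, but the difference from LPS, -0.61 ± 0.19, was not called (adjusted p = 0.0875). Neither LPS (-0.38 ± 0.19, adjusted p = 0.148) nor Dex alone (-0.42 ± 0.19, adjusted p = 0.208) gave a call at 6 h.

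Mmp14 encodes a membrane-type metalloproteinase, anchored in the cell surface, which activates the proenzyme of the gelatinase Mmp2. Its normalized signal at 6 h was 10831 and 8728 in unstimulated cells, 8449 and 7860.0 with Dex, 20830.1 and 15085 with LPS, and 19939 and 21347 with Dex plus LPS. Both groups with LPS lay above both groups without it. The LPS difference was 0.87 ± 0.20, or 1.82-fold (adjusted p = 0.00795), under the 2-fold limit. Without the first unstimulated array it was 1.02 and without the second LPS array 1.10, and both then passed the limit (adjusted p = 0.0132 and 0.0111). It also passed under median scaling (1.20, adjusted p = 0.000592) and in the authors' processed value table (1.12, adjusted p = 0.000186). Dex plus LPS was 2.53-fold above Dex alone (1.34 ± 0.20, adjusted p = 0.000853). Dex made no called difference, with 0.22 ± 0.20 in LPS-treated cells at 6 h (adjusted p = 0.564), -0.25 ± 0.20 without LPS (adjusted p = 0.463) and -0.12 ± 0.08 in LPS-treated cells at 3 h (adjusted p = 0.262). At 3 h all 8 arrays lay between 26139 and 32822.

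Mmp19 encodes a secreted metalloproteinase that cuts basement membrane proteins. Its deposited signal was 113 to 207 over all arrays. It was above background on 1 array labelled Dex and on 1 Dex plus LPS array of the 3 h experiment, and no comparison was made.

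Timp2 encodes an inhibitor of metalloproteinases that, with Mmp14, also takes part in activating Mmp2. It was lowered by LPS at 6 h. Its normalized signal was 3338 and 4392 in unstimulated cells, 6264 and 4274 with Dex, 990 and 834 with LPS, and 976 and 1047 with Dex plus LPS. All 4 arrays with LPS lay below all 4 without it. The LPS difference was 4.21-fold (-2.07 ± 0.23, adjusted p = 8.58e-05), and Dex plus LPS was 5.12-fold below Dex alone (-2.36 ± 0.23, adjusted p = 4.69e-05). Dex gave no call, with 0.43 ± 0.23 without LPS (adjusted p = 0.265) and 0.15 ± 0.23 with LPS (adjusted p = 0.734). At 3 h Timp2 was at 3184 and 2846 with LPS and 2469.98 on both Dex plus LPS arrays, a difference of -0.29 ± 0.08 that is 1.22-fold (adjusted p = 0.0429).

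Timp1 encodes an inducible inhibitor with a broad range among secreted metalloproteinases. It lay near background here. The normalized signal of its brighter probe at 6 h was 127 and 61.6 in unstimulated cells, 65.7 and 80.8 with Dex, 70.0 and 120.1 with LPS, and 64.0 and 59.8 with Dex plus LPS. The Dex plus LPS arrays were not above background for this probe, and its groups overlapped except that Dex plus LPS lay below LPS and below Dex. No comparison gave a call, and the difference furthest from 0 was that between Dex plus LPS and LPS at 6 h, -0.57 ± 0.34 (adjusted p = 0.348). The second probe differed there by -0.52 ± 0.24 (adjusted p = 0.22). With a standard error of 0.34 at 6 h, a change of this size was not detectable on these arrays.

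Serpinb2 encodes plasminogen activator inhibitor-2, an inhibitor of urokinase that stays largely inside the cell. It had the largest LPS response of the 9 genes at 6 h. Its normalized signal was 75.8 and 110.2 in unstimulated cells, 35.8 and 30.8 with Dex, 1527 and 1356 with LPS, and 411 and 459 with Dex plus LPS. The 4 groups did not overlap, and their order, Dex, unstimulated, Dex plus LPS and LPS, was that of Mmp13. LPS raised Serpinb2 by 15.7-fold (3.98 ± 0.21, adjusted p = 9.34e-07), and Dex in LPS-treated cells lowered it by 3.32-fold (-1.73 ± 0.21, adjusted p = 0.00115). With Dex alone it was not detected on either array, so that the fall from the unstimulated level was at least 1.48-fold (adjusted p = 0.00369) and the rise from Dex to Dex plus LPS at least 7.04-fold (adjusted p = 1.32e-06). These bounds set the detected group against the lowest detected signal of each array of the other group. At 3 h Serpinb2 was at 2687 and 2679 with LPS and 1689 and 1439 with Dex plus LPS, 1.72-fold lower (-0.78 ± 0.10, adjusted p = 0.00257) and under the 2-fold limit.

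Plau encodes urokinase. At 3 h Dex lowered it in LPS-treated cells, from 963 and 957 to 331 and 371, which is 2.74-fold (-1.45 ± 0.12, adjusted p = 0.000698). At 6 h the arrays of each group stood far apart, at 584 and 855 in unstimulated cells, 649.8 and 301 with Dex, 704 and 449 with LPS, and 302 and 447 with Dex plus LPS. The lower of the LPS arrays lay just above the higher of the Dex plus LPS arrays, and the difference of -0.62 ± 0.37 was not called (adjusted p = 0.353). Neither LPS (-0.33 ± 0.37, adjusted p = 0.527) nor Dex alone (-0.68 ± 0.37, adjusted p = 0.288) was called at 6 h.

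**Figure D3:**
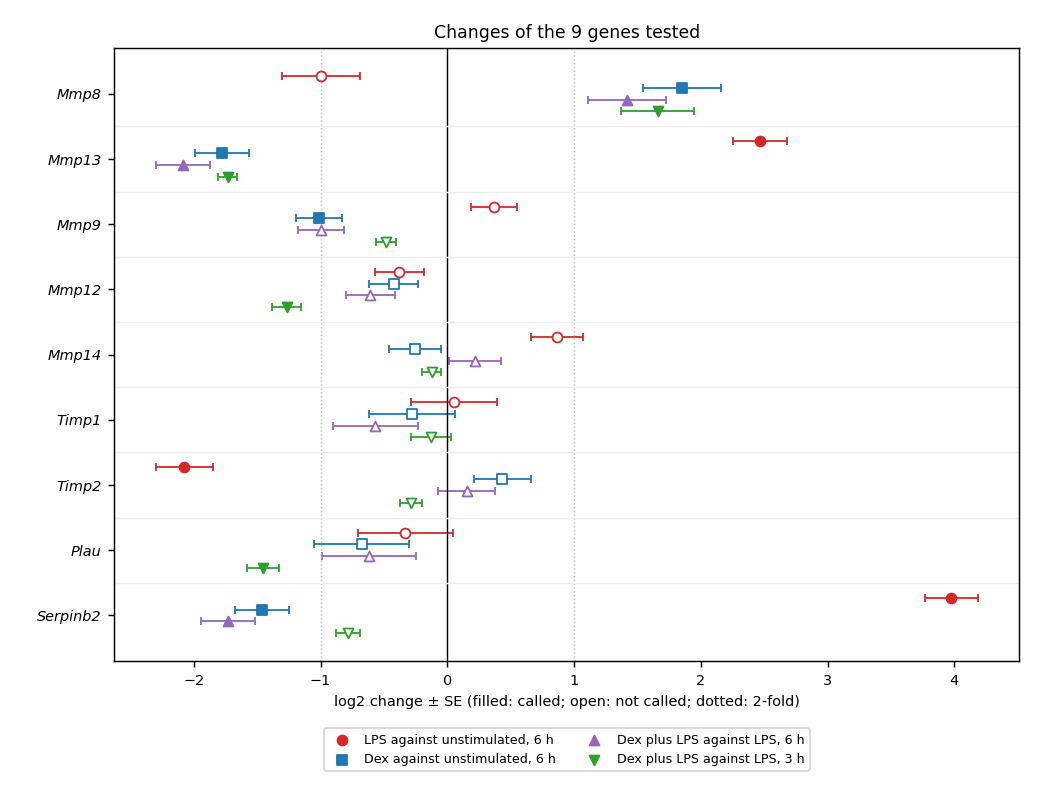
Log2 change with its standard error for the 9 genes tested, in 4 comparisons of 2 arrays against 2. Filled symbols mark calls and open symbols mark differences that were not called, and the dotted lines mark 2-fold. Mmp8 has called rises in the 3 Dex comparisons, and Mmp13 has called falls in the same 3.

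Dex plus LPS against LPS was the comparison that both experiments allowed. Mmp8 was called higher and Mmp13 lower in each. Mmp12 and Plau were called at 3 h only and Serpinb2 at 6 h only, but a test of the difference between the experiments called 0 of the 9 genes, where 0.737% of all 7458 genes tested in both were called, and 3 of the 9 had an unadjusted p under 0.05, as had 18.1% of all genes. Those 3 were Serpinb2 (-0.95 ± 0.24 at 6 h minus 3 h, adjusted p = 0.0734), Mmp12 (0.66 ± 0.22, adjusted p = 0.149) and Mmp9 (-0.51 ± 0.19, adjusted p = 0.178). The time of LPS and the experiment cannot be told apart here. With the arrays of each group averaged and the 2 experiments used as the only repeats, Mmp8 was higher (1.54 ± 0.18, adjusted p = 0.000518) and Mmp13 (-1.91 ± 0.19, adjusted p = 0.000126), Serpinb2 (-1.26 ± 0.23, adjusted p = 0.00727) and Plau (-1.03 ± 0.22, adjusted p = 0.0154) were lower. Mmp12, at -0.94 ± 0.20 (adjusted p = 0.018), and Mmp9, at -0.74 ± 0.19 (adjusted p = 0.0468), fell short of 2-fold in that fit. The fit called 203 of all 7458 genes, and 1618 had an unadjusted p under 0.05. Its 2 repeats differ in the time of LPS, and being so few, their standard errors lean on the spread that limma shares over all genes. The median difference of the 9 genes was -0.48 at 3 h and -0.61 at 6 h, against 0.04 and 0.06 over all genes tested. This is a description only, because the genes were chosen with earlier results of these data known.

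**Figure D4:**
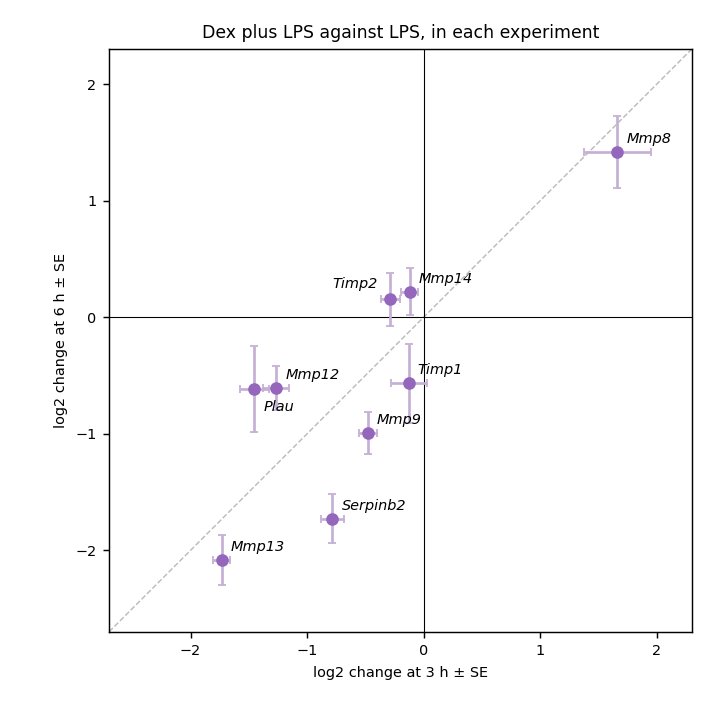
Log2 change with Dex plus LPS against LPS at 6 h (vertical) and at 3 h (horizontal), each with its standard error, for the 9 genes tested. The dashed line marks equal changes, and the experiments share no arrays. Mmp8 lies in the upper right and Mmp13 in the lower left, while Plau and Mmp12 lie above the line and Serpinb2 and Mmp9 below it.

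Whether the effect of Dex differed with and without LPS was tested at 6 h as the difference of the Dex effects. By limma 0 of the 9 genes were called, where 0.565% of all genes were called. An unadjusted p under 0.05 was found for 0 of the 9, against 16.3% of all genes. The differences ranged from -0.43 ± 0.44 for Mmp8 to 0.47 ± 0.29 for Mmp14, and for Mmp13 it was -0.31 ± 0.30 (adjusted p = 0.631). The second Mmp13 probe gave -1.81 ± 0.33 (adjusted p = 0.0445 over all probes), a call. With Dex alone this probe was below background, so its Dex effect without LPS, and with it this difference, is not a full measure. The same limit holds for Serpinb2, at -0.27 ± 0.30 (adjusted p = 0.678), which was not detected with Dex alone. On the 3 h arrays as labelled, LPS against unstimulated called 0 of 9 genes by limma, where 2.91% of all genes were called, and 4 of 9 had an unadjusted p under 0.05, as had 46.2% of all genes. Dex against unstimulated as labelled called 0 of 9, where 0.759% of all genes were called, and 7 of 9 had an unadjusted p under 0.05, as had 32.3% of all genes.

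In the table that the authors normalized with a cubic spline, which holds the 6 h samples, none of these genes was called with Dex. Mmp13 was at 3280 and 3525 there in unstimulated cells, 3522 and 3530.5 with Dex, 7396 and 7065 with LPS, and 5769 and 5706 with Dex plus LPS. By limma on that table, 0 of 9 genes were called with Dex alone (1 at an unadjusted p under 0.05). With Dex in LPS-treated cells 0 of 9 were called (4 at an unadjusted p under 0.05). Plau (-0.47, adjusted p = 0.00677) and Mmp13 (-0.33, adjusted p = 0.0406) were lower there, both under 2-fold. No other gene of the 9 had an adjusted p under 0.05 in that comparison. LPS called 2 of 9 there, where 204 of all genes were called. The 2 were Mmp13 (1.09, adjusted p = 1.34e-09) and Serpinb2 (1.23, adjusted p = 3.36e-09). Timp2 lost its calls, at -0.21 with LPS (adjusted p = 0.0574) and -0.17 for Dex plus LPS against Dex (adjusted p = 0.139). Over all genes 0 were called in each Dex comparison, with 680 and 1499 at an unadjusted p under 0.05. Fkbp5 was at 414 and 464 in unstimulated cells and 426 and 414 with Dex in that table, against deposited signals of 218 to 283 and 2832 to 3147 before normalization. Across probes, the ranks in it had a Spearman correlation of 0.863 to 0.895 with those of the unnormalized 6 h table. The differences between arrays followed that table less closely, with a Pearson's r of 0.381 to 0.549. For the authors' processed value table the same measure was 0.973 to 0.988. The results at 6 h therefore rest on the unnormalized table.

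Other genes of the protease system were counted from lists of 61 genes, of which 52 were on the array. Of these, 23 were tested at 6 h and 24 at 3 h. The lists were chosen with earlier results of these data known, so their counts are a description. LPS at 6 h raised 5 of the 23 and lowered 1, where 8.36% of all genes rose and 8.75% fell. Plaur, the receptor that holds urokinase at the cell surface, rose from 344 and 396 to 1105 and 998 (1.51 ± 0.20, adjusted p = 0.000255). Adamts4, an aggrecanase, rose at least 6.27-fold (adjusted p = 2.57e-07). The serpin Serpina3f rose at least 2.55-fold (adjusted p = 0.00022) and Mmp2 at least 1.28-fold (adjusted p = 0.00141), each from a level not well above background. Lcn2, whose product forms a complex with MMP9 in humans, rose by 1.34 ± 0.20 (adjusted p = 0.000552), and the serpin Serpinb6b fell by 1.23 ± 0.22 on the log2 scale (adjusted p = 0.00167).

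With Dex alone 1 of the 23 genes rose and 1 fell, where 1.63% of all genes rose and 1.89% fell. Lcn2 rose by 1.69 ± 0.20 (adjusted p = 0.0011) and Serpinb6b fell by 1.73 ± 0.22 (adjusted p = 0.00174). In LPS-treated cells at 6 h, Dex raised 1 and lowered 3, where 1.31% rose and 2.45% fell. Adam9, a membrane-anchored metalloproteinase-disintegrin, rose by 1.02 ± 0.16 (adjusted p = 0.00469). Plaur fell to 450.4 and 388 (-1.33 ± 0.20, adjusted p = 0.00336), Serpina3f fell by 1.09 ± 0.19 (adjusted p = 0.00716), and Serpinb6b fell at least 1.37-fold to below background (adjusted p = 0.00774). Plaur thus rose with LPS and was lower with Dex plus LPS than with LPS, as Mmp13 and Serpinb2 were. Dex plus LPS against Dex raised 1 and lowered 1, where 6.75% rose and 6.74% fell, with Adamts4 at least 4.60-fold higher (adjusted p = 1.41e-06) and Adam8, another metalloproteinase-disintegrin, 3.18-fold lower (-1.67 ± 0.22, adjusted p = 0.000376). At 3 h, Dex in LPS-treated cells raised 1 of 24 genes and lowered 1, where 1.16% rose and 2.28% fell. Lcn2 rose at least 2.29-fold (adjusted p = 0.000349), a bound because its Dex plus LPS arrays were saturated, and Mmp2 fell by 1.40 ± 0.27 (adjusted p = 0.0115). No other metalloproteinase inhibitor of the list (Timp3, Timp4, Reck and A2m) was tested at 6 h.

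For each of the 9 genes, the genes with the most similar level over the 8 arrays at 6 h were found by Pearson's r, as a description over arrays that share treatments. For Serpinb2 they were Egr1 (r = 0.996) and Upp1 (0.995), and for Mmp13 they were Isg20 (0.990) and Tmem171 (0.990). Timp2 was nearest to Mgst2 (0.997) and Mbnl1 (0.997), Mmp9 to Stap1 (0.989) and Pml (0.981), and Mmp8 to Actr3 (0.991) and Ccdc47 (0.984). Mmp14 was nearest to Hs3st3a1 (0.985) and Kdm4a (0.980), Mmp12 to Tuba1a (0.975) and Cxcl14 (0.970), and Plau to Sdhaf3 (0.962) and Nt5dc1 (0.959). Timp1, near background, had the lowest values, with Ift22 at 0.909 and Lxn at 0.876. Among the 9 genes themselves, Mmp13 and Serpinb2 were the closest pair (r = 0.943) and Mmp8 and Mmp9 the most opposed (r = -0.946). Mmp14 and Timp2 were opposed at r = -0.934.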

How the data were processed

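RNA of 16 arrays in 8 groups of 2 was compared. Per the file headers, the deposited unnormalized tables give an intensity (signal) and a detection p-value for each array. Another table gives the intensity after a cubic spline normalization by the authors, per its headers. The authors' processed value table holds intensity values at 3 h and centred values that follow log2 differences of the unnormalized 6 h table (slope 0.957 to 1.02). The scale, centring and direction of its 6 h columns were found by that comparison. The sources used here do not give how they were normalized. Its column medians were 0.163, 0.106, -0.0978, -0.0893, 0.0458, 0.0170, -0.0123 and -0.197 at 6 h and 167 at 3 h, with 4003 probes empty at 6 h. The submitters' processing notes name GenomeStudio. Columns at 3 h name a group and no sample. The 40 columns of bead numbers, bead errors and spline detection p were not used.

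Background was corrected with limma's normexp (version 3.58.1, R 4.3.3; offset 16), followed by quantile normalization in each experiment and log2. The brightest detected probe stood for a gene. Genes were named by the platform annotation, which gave 1 symbol to 23846 probes and several to 0, and did not list 1851. Where its Entrez gene number was found in the RefSeq annotation, the RefSeq symbol replaced the platform symbol. lmFit and eBayes were run on the 8 arrays of an experiment, with Benjamini-Hochberg adjustment over all genes, and the script was tested on simulated data. A signal of at least 80% of an array's highest was taken as saturated. Named genes were the 10 members, called genes of the protease lists (up to 3 per list and direction), the 2 most similar genes of each member, and marker genes. Members and lists were chosen with earlier results of these data known. Alternatives were no background correction, an offset of 50, median scaling, no filter, the mean of a gene's probes, joint normalization, a replicate block, the authors' tables, averaged replicates and leaving out each array.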

Additional observations from a re-analysis of the deposited data

How the results depend on the processing

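Of the values of single genes under the alternatives, 1302 kept the direction and the side of the threshold, and 50 changed sign with no call in either setting. A further 27 lost a call, 12 gained one, and 4 lost a call with a change of sign. These 4 all came from the authors' spline-normalized table, and none was called in the other direction by limma. For Dex at 6 h, Mmp8 was at -0.19 (adjusted p = 0.587) and Mmp13 at 0.053 (adjusted p = 0.9). Serpinb2 was at 0.053 for Dex plus LPS against LPS at 6 h (adjusted p = 0.819). Mmp8 was at 0.29 for Dex plus LPS against Dex (adjusted p = 0.0274), under 2-fold. That table gave 0 called genes of the 9 for Dex (main 4) and 0 for Dex plus LPS against LPS at 6 h (main 3). For Dex plus LPS against Dex it gave 1 (main 5). In the same order, 1, 4 and 6 of the 9 had an unadjusted p under 0.05. Of all genes, 0, 0 and 196 were called there, and 680, 1499 and 2900 had an unadjusted p under 0.05. The cause of the lower counts in that table was not tested. For Dex at 6 h, 2 genes were called without background correction, with an offset of 50, and in the authors' processed value table, an alternative chosen after seeing the data. Of all genes, 131, 200 and 128 were called in these settings. In each, Mmp9 and Serpinb2 fell short of 2-fold. The Dex plus LPS call of Mmp8 at 6 h was also lost without background correction (0.90), without the filter on dim probes (1.42, adjusted p = 0.0697) and in the processed value table (0.88). On leaving out each array, LPS changes at 6 h were 2.37 to 2.57 for Mmp13, 3.71 to 4.25 for Serpinb2 and -2.27 to -1.88 for Timp2. Mmp14, at 0.63 to 1.10, and Mmp8, at -1.52 to -0.47, lay on both sides of 2-fold. Dex changes at 6 h were 1.33 to 2.37 for Mmp8 and -2.04 to -1.51 for Mmp13. For Serpinb2, below background with Dex, they were -1.73 to -1.19. Mmp9, at -1.14 to -0.88 with Dex, lay on both sides of 2-fold. For the arrays labelled Dex against unstimulated at 3 h, median scaling gave 1 call, Mmp8, where 87 of all genes were called. Leaving out each array gave Mmp8 differences of 0.79 to 1.32 there. Median scaling moved the median of all genes by 0.14 for LPS, 0.28 for Dex and 0.14 for Dex plus LPS against LPS at 6 h. The 3 h fit on the LPS and Dex plus LPS arrays alone kept all 4 calls. The replicate numbers did not pair the 6 h arrays (correlations -0.22 to 0.0093), and a replicate block gave 3, 4, 3, 5 and 0 called genes for LPS, Dex, Dex plus LPS against LPS, Dex plus LPS against Dex and the non-additive effect, as without it. At 3 h the columns carry no replicate number, so no block was fitted. Signal near background limits Mmp8, Mmp9, Mmp19, Timp1 and Serpinb2 without LPS.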
